A study of Homo sapiens with 24 samples.

Results

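The HOX cluster genes encode homeodomain transcription factors that give cells their position along the body axis. They lie in 4 clusters on 4 chromosomes, and genes with the same number in different clusters are paralogs descended from the same ancestral gene. Within a cluster the genes with low numbers (anterior) are used nearest the head of the embryo and those with high numbers (posterior) nearest the tail and in the limbs. Adult connective tissue and tumours derived from it often keep part of the HOX pattern of their site of origin. HOX proteins bind DNA together with TALE homeodomain cofactors of the PBX, MEIS and PKNOX families, and Polycomb and Trithorax proteins keep the clusters silent or active.

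The members were all protein-coding genes whose GENCODE symbol is HOX followed by A, B, C or D and digits only. This rule found 39 genes among the 60279 genes listed in the count files. Cluster A had 11 members on chromosome 7, cluster B 10 members on chromosome 17 (48528526 to 48728750), cluster C 9 members on chromosome 12 (53938831 to 54056030) and cluster D 9 members on chromosome 2 (176092721 to 176190907), in GRCh38. A mean of 5 or more counts per library was reached by 35 members, and these were tested. The other 4 were HOXB1 with 0 to 1 counts per library, HOXD10 with 0 to 5, HOXD11 with 0 to 3 and HOXD12 with 0 to 5. The HOX genes are packed closely, and 33 of the 39 overlapped another annotated gene, 23 of them on the same strand. Counts of such neighbours cannot be told apart with certainty, because the use of strand in counting was not stated.

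RNA was sequenced from SW872, an established human liposarcoma cell line, in 24 libraries that formed 8 groups of 3. All cells carried the pBabeNeo retroviral vector, were selected with G418 as pooled stable lines, and the triplicates came from separate transductions. The control group EV carried the empty vector. TAZ and YAP are transcriptional coactivators that act through TEAD DNA-binding proteins and are held in check by LATS kinases. Fusions of them with CAMTA1 or TFE3 occur in the vascular tumour epithelioid hemangioendothelioma. The group TAZ-CAMTA1 carried the TAZ-CAMTA1 fusion and the group YAP-TFE3 carried the YAP-TFE3 fusion. The groups TAZ4SA and YAP5SA carried TAZ or YAP in which serines that LATS kinases phosphorylate were changed to alanine. The groups CAMTA1 and TFE3 carried the full-length partner proteins. The fusions, the changed TAZ and YAP and the partner proteins were all Flag tagged. Cells were collected 48 h after confluence, except for the CAMTA1 group and its own empty vector control, EVsub, which were collected while sub-confluent. All comparisons of the confluent constructs share the 3 EV libraries.

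The libraries held 19700277 to 35287476 counts, of which the HOX genes took 374 to 476 counts per 1000000. The introduced genes were checked first. CAMTA1 stood at 144 CPM (counts per 1000000 of the TMM-scaled library) in TAZ-CAMTA1 and 21.4 CPM in EV, YAP1 at 253 and 128 CPM in YAP5SA and EV, and TFE3 at 336 CPM in TFE3 and 119 CPM in EV. YAP-TFE3 had 153 CPM of YAP1 and 283 CPM of TFE3, and the CAMTA1 group had 123 CPM of CAMTA1 beside 22.9 CPM in EVsub. WWTR1, which encodes TAZ, went against its label: it was lower in the libraries labelled TAZ4SA (134 ± 0.538 CPM, SD, n = 3) than in EV (204 ± 20.3 CPM). WWTR1 was also lower than in EV in YAP5SA (log2 change -1.57) and YAP-TFE3 (-0.699), beside -0.605 in the libraries labelled TAZ4SA. The cause was not tested. The authors show expression of Flag-tagged TAZ4SA protein in SW872 cells by western blot, which RNA counts do not measure. The directions drawn below from the libraries labelled TAZ4SA carry the limit that a rise in the RNA of their introduced gene was not seen. Of the mesenchymal markers, FN1, VIM, COL5A1 and PDGFRB were abundant, and the leukocyte gene PTPRC had at most 1 count in any library. Of 7 adipocyte markers, ADIPOQ, LEP and CIDEC had at most 0, 2 and 3 counts, FABP4 and PLIN1 at most 23 and 38, and LPL and PPARG at most 8371 and 3193. Their sum was 148 to 222 CPM in EV, 172 to 234 in TAZ-CAMTA1, 62.4 to 72.6 in the libraries labelled TAZ4SA, 302.5 to 368.6 in YAP-TFE3, 114 to 128 in YAP5SA and 204 to 236 in EVsub. The summed level of 6 endothelial markers was 109 to 150 CPM in the EV libraries, 137 to 184 in TAZ-CAMTA1, 42.5 to 64.2 in the libraries labelled TAZ4SA, 77.4 to 88.0 in YAP-TFE3, 25.9 to 34.9 in YAP5SA and 42.6 to 65.5 in EVsub, with none of the 6 at 0 throughout. The 8 mesenchymal markers summed to 5391 to 6299 CPM in EV, 6654 to 8335 in TAZ-CAMTA1, 2405 to 3577 in the libraries labelled TAZ4SA, 5013 to 6439 in YAP-TFE3, 2876 to 4590 in YAP5SA and 3224 to 3383 in EVsub. FN1 had the highest count of the 8 (up to 214244 in a library), followed by VIM (38020). In YAP5SA vs EV 2 of the 8 were called higher and 1 lower (37.5% beside 44.1% of all genes), with a median log2 change of 0.004. The libraries labelled TAZ4SA had 1 higher and 4 lower (62.5% beside 49%) and EVsub 1 and 5 (75% beside 36.8%). YAP-TFE3 had 2 and 4 (75% beside 48.1%) and TAZ-CAMTA1 3 and 0 (37.5% beside 5.02%). The part of these shifts in the HOX results was not tested.

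RefSeq promoter sequence (GRCh38.p14) was matched by symbol for 20 of the 39 members, in 27 entries, or 26 distinct windows, of 300 bases from 250 bases before to 50 bases after a transcript start. The 250 upstream bases are shown for the members with 1 window whose change against EV, described below, was largest. HOXC4 and HOXC5 share their window, which ends at 54016937. In GENCODE the HOXC4 gene starts near it, at 54016931, while the HOXC5 gene starts farther downstream, at 54033050. Capitals mark a match to the TEAD core GGAATG (printed as its reverse complement where it lies on the other strand) or to the E-box CACGTG, a motif bound by TFE3 and its relatives.
HOXC4 and HOXC5, chr12:54016638-54016887, plus strand: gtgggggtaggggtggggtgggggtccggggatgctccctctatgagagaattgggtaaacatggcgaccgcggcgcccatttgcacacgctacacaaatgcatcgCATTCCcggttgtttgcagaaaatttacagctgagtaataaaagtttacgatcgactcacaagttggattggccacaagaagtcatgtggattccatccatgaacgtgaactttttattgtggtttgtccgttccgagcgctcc
HOXA4, chr7:27130758-27131007, minus strand: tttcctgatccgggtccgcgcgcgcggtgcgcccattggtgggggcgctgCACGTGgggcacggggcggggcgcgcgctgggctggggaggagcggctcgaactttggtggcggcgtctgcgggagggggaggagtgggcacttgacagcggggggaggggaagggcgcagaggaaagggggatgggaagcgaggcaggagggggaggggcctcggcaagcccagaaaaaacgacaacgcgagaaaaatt
HOXA2, chr7:27102684-27102933, minus strand: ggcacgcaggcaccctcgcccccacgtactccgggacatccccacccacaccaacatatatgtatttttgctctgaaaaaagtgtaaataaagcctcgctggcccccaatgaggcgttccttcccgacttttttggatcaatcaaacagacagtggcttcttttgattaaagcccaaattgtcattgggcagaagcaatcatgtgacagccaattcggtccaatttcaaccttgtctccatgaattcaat
HOXD3, chr2:176157057-176157306, plus strand: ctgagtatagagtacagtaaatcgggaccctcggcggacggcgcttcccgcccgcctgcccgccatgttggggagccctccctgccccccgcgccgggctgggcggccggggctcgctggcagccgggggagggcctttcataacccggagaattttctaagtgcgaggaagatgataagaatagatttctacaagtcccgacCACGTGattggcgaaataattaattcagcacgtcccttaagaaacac

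The TEAD match in the shared window lay 144 bases upstream of a RefSeq transcript start at the HOXC4 end, not of the GENCODE start of HOXC5. The E-box matches lay 200 bases upstream of such a start in HOXA4 and 47 bases upstream in HOXD3. The HOXD3 window lies within its gene, which starts at 176136612 in GENCODE. HOXA2 had no match to either motif in this window. With both strands searched, and each distinct window counted once, GGAATG occurred in 7 of the 26 HOX windows (26.9%) and in 14.04% of all 34943 promoter windows of the table, and CACGTG in 9 (34.6%) and 7.23%. The AP-1 motif TGANTCA was in 0 of the 26 and in 7.72% of all windows, and TATAAA in 5 (19.2%) and 11.6%. Several windows belong to 1 gene, since HOXA3 alone had 7. The median GC content of the HOX windows was 58%, near the 58.67% of all windows, while the median ratio of observed to expected CpG was 0.855 and 0.577. A match is a description of letters and not a bound site, and its absence says only that these letters are not in the window. HOXA5, HOXB2 to HOXB9, HOXB13, HOXC6, HOXC8 to HOXC13 and HOXD9 had no entry.

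In the EV cells HOX expression was broad and cluster B carried most of it. The 39 genes summed to 426 CPM, of which cluster B held 53.6%, cluster C 20.3%, cluster A 17.6% and cluster D 8.59%. Levels of different genes were compared per kilobase of exon. On that scale HOXB7 was highest (24 CPM per kb), followed by HOXB9 (18.7), HOXB13 (15.7), HOXA5 (13), HOXC13 (10.5), HOXB2 (8.79), HOXB4 (8.27) and HOXC8 (6.95). Genes of the posterior end (HOXB13, HOXC13) and of the centre (HOXB7, HOXA5) thus stood side by side. The lowest tested members were HOXA9 (0.119 CPM per kb), HOXD1 (0.130) and HOXC5 (0.240). In cluster D, HOXD8, HOXD9 and HOXD13 were measurable in every library, while HOXD10, HOXD11 and HOXD12 between them were at or near 0.

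**Figure D1:**
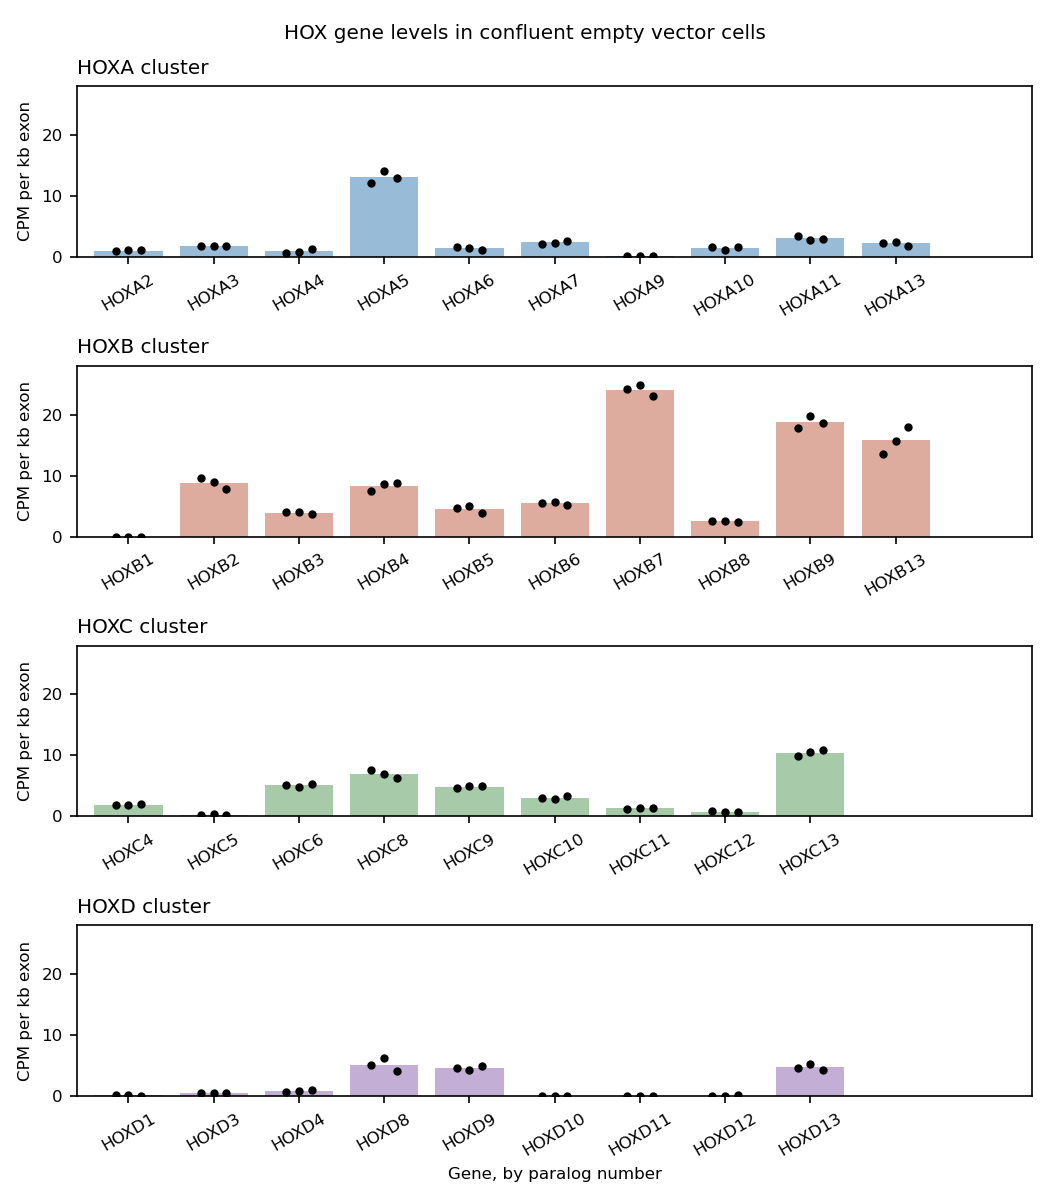
Level of HOX genes in the EV cells, in CPM per kilobase of exon, with 1 panel per cluster. Bars are means and points the 3 EV libraries. HOXB7 stands highest at 24, and HOXD10 to HOXD12 lie at or near 0.

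Against the empty vector, the number of HOX genes that changed ranged from 0 to 22 of the 35 tested, and their direction depended on the cluster and on the construct. The call rested on edgeR's quasi-likelihood test, with p-values adjusted by Benjamini-Hochberg over all 19997 genes and a threshold of 0.05. TAZ-CAMTA1 changed 3 HOX genes (2 higher, 1 lower), against 5.02% of all genes called in that comparison (3.59% higher, 1.43% lower). The libraries labelled TAZ4SA changed 16 (9 higher, 7 lower, with 49% of all genes called, 24.9% higher and 24% lower) and YAP5SA changed 14 (8 higher, 6 lower, with 44.1%, 22.6% higher and 21.5% lower). YAP-TFE3 changed 22 (5 higher, 17 lower, with 48.1%). Of the tested HOX genes, 48.6% were thus lower in YAP-TFE3, whereas 22.5% of all genes were, and 14.3% were higher, beside 25.6% of all genes. With total-count scaling in place of TMM, which moved the median of all genes by -0.20 in the libraries labelled TAZ4SA and by -0.18 in YAP5SA, the splits became 5 higher and 10 lower, and 7 higher and 10 lower. Full-length TFE3 changed 0 HOX genes in edgeR and 0 in DESeq2, and 0 reached an unadjusted p below 0.05, where 0.035% of all genes were called. The share of tested HOX genes called was 8.57% in TAZ-CAMTA1, 45.7% in the libraries labelled TAZ4SA, 40% in YAP5SA and 62.9% in YAP-TFE3, so that the counts of the middle pair lay below the background share.

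**Figure D2:**
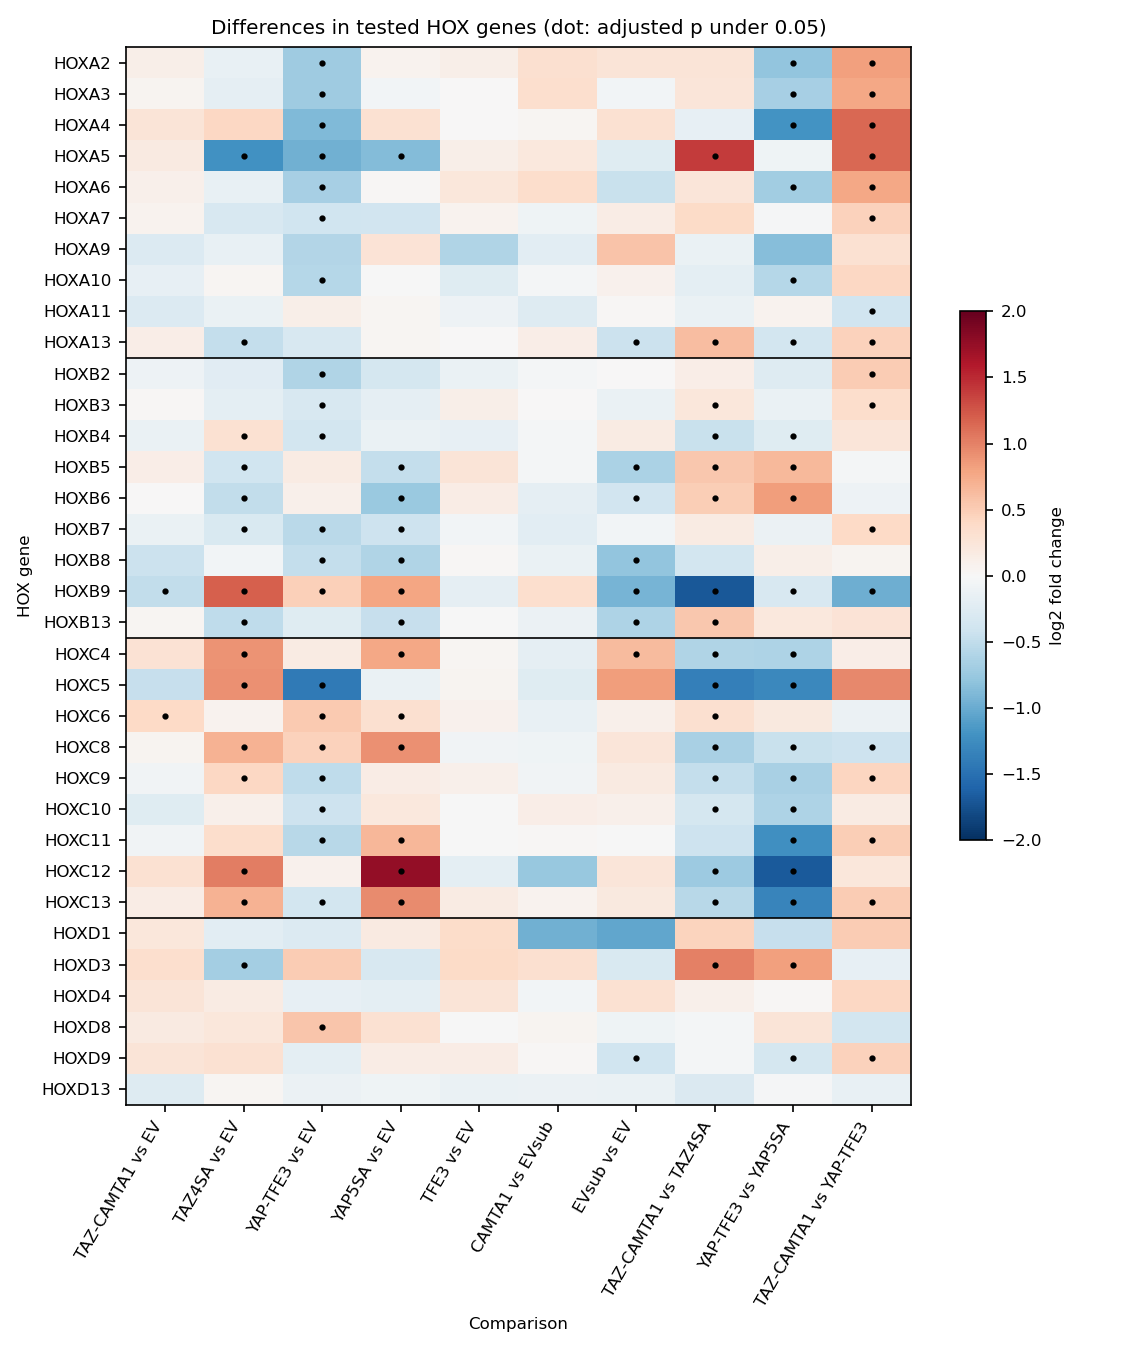
Fitted log2 fold change of tested HOX genes in 10 comparisons, ordered by cluster and number, with a dot where the adjusted p was below 0.05. The HOXC genes are mostly higher in YAP5SA and the libraries labelled TAZ4SA, the HOXA genes are mostly lower in YAP-TFE3, and the TFE3 and CAMTA1 columns hold no dot.

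HOXA5, a central gene that patterns the lung and the thoracic skeleton, fell with 3 constructs. It stood at 20.8, 24.1 and 22.2 CPM in EV, at 9.60, 10.004 and 9.49 CPM in the libraries labelled TAZ4SA, at 10.1, 10.2 and 14.2 CPM in YAP-TFE3 and at 12.2, 11.9 and 12.5 CPM in YAP5SA. All 9 construct libraries lay below all 3 EV libraries. The log2 changes in edgeR were -1.21 (SE 0.12, adjusted p = 4.99e-09), -0.96 (SE 0.11, adjusted p = 1.38e-07) and -0.87 (SE 0.11, adjusted p = 9.22e-07). TAZ-CAMTA1 had 23.8, 25.1 and 27.4 CPM, a log2 change of 0.19 that did not pass the test (adjusted p = 0.401).

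Most other genes of cluster A were lower in YAP-TFE3. With HOXA5, 7 of the 11 HOXA genes fell there (63.6%, beside 22.5% of all genes). In YAP5SA 1 of the 11 fell (9.09%, beside 21.5%) and in the libraries labelled TAZ4SA 2 (18.2%, beside 24%). Of the lower calls in YAP-TFE3, those of HOXA3, HOXA5 and HOXA6 held without any 1 library. HOXA3, which patterns pharyngeal organs such as the thymus, had 7.52, 7.65 and 7.27 CPM in EV and 4.39, 5.08 and 4.22 CPM in YAP-TFE3, with no overlap (log2 change -0.71, SE 0.15, adjusted p = 0.000422 in edgeR). HOXA4 had 1.00, 1.49 and 2.13 CPM and 0.715, 0.973 and 0.752 CPM (log2 change -0.89, SE 0.29, adjusted p = 0.0141). The 2 groups of HOXA4 were nearly adjacent, and the call was lost without EV replicate 3 (adjusted p = 0.118). HOXA2, which patterns the facial skeleton, had 2.31, 2.44 and 2.42 CPM in EV and 1.62, 1.98 and 0.780 CPM in YAP-TFE3. It fell by 0.72 on the log2 scale (adjusted p = 0.0174 in edgeR), a call lost without YAP-TFE3 replicate 3 (log2 change -0.40, adjusted p = 0.126). HOXA6, at 2.04, 1.94 and 1.41 CPM in EV and 1.04, 1.07 and 1.30 CPM in YAP-TFE3, fell without overlap (-0.67, adjusted p = 0.00583). HOXA10, a gene of the uterus and limb, had 5.66, 4.30 and 5.81 CPM in EV and 3.02, 3.58 and 4.02 CPM in YAP-TFE3 (-0.57), also without overlap. HOXA7 had 5.18, 5.48 and 6.40 CPM and 3.51, 4.11 and 5.20 CPM (-0.40), and here replicate 3 of YAP-TFE3 reached the EV range. HOXA10 lost its call without any 1 of 3 libraries (EV replicates 1 and 3, YAP-TFE3 replicate 1), with adjusted p of 0.0507 to 0.0633. HOXA7 lost it without any 1 of 4 (EV replicates 2 and 3, YAP-TFE3 replicates 1 and 2), with adjusted p of 0.0712 to 0.212. HOXA13, which shapes the distal limb, had 11.6, 12.6 and 8.96 CPM in EV and 8.59, 8.84 and 6.40 CPM in the libraries labelled TAZ4SA, where it was called lower (log2 change -0.48, adjusted p = 0.00895), but not without EV replicate 2 or TAZ4SA replicate 3, where adjusted p was 0.0617 and 0.0709. HOXA9 and HOXA11 passed the test against EV with none of the constructs.

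HOXB9, a posterior gene of the trunk, had the largest spread of levels in cluster B. It stood at 46.0, 51.3 and 48.0 CPM in EV, at 118, 111 and 104 CPM in the libraries labelled TAZ4SA, at 84.9, 86.0 and 80.8 CPM in YAP5SA and at 73.5, 80.8 and 47.6 CPM in YAP-TFE3. In TAZ-CAMTA1 it was 35.5, 34.9 and 32.6 CPM. The fusion TAZ-CAMTA1 thus lay wholly below EV and the libraries labelled TAZ4SA and YAP5SA wholly above it, while replicate 3 of YAP-TFE3 fell inside the EV range. The log2 changes in edgeR were 1.2 (SE 0.13, adjusted p = 4.2e-08), 0.79 (SE 0.13, adjusted p = 2.13e-05), 0.47 (SE 0.13, adjusted p = 0.00384) and -0.50 (SE 0.13, adjusted p = 0.0255) in the order just given. The call in YAP-TFE3 was lost without YAP-TFE3 replicate 2 (log2 change 0.32, adjusted p = 0.0516). The one in TAZ-CAMTA1 was lost without EV replicate 2 or 3 or without TAZ-CAMTA1 replicate 2 or 3, with adjusted p of 0.0630 to 0.136.

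Most other cluster B calls were lower. HOXB6 had 14.4, 14.9 and 13.5 CPM in EV, 10.6, 10.3 and 9.41 CPM in the libraries labelled TAZ4SA and 7.79, 9.89 and 8.03 CPM in YAP5SA, without overlap. Its log2 change in edgeR was -0.50 (SE 0.13, adjusted p = 0.00209) and -0.74 (SE 0.13, adjusted p = 4.44e-05), while YAP-TFE3 stayed at 14.7, 15.7 and 15.5 CPM. HOXB13, a posterior gene known from prostate and colon, had 41.3, 47.4 and 54.8 CPM in EV, 33.7, 35.9 and 31.3 CPM in the libraries labelled TAZ4SA and 34.0, 37.6 and 32.5 CPM in YAP5SA (log2 changes -0.51 and -0.46, adjusted p = 0.00281 and 0.0063). HOXB7, the most highly expressed member per kilobase in EV, had 36.8, 37.7 and 34.9 CPM in EV, 30.1, 27.5 and 24.5 CPM in YAP5SA, 25.0, 23.5 and 27 CPM in YAP-TFE3 and 30.04, 31.9 and 27.2 CPM in the libraries labelled TAZ4SA. It was lower in these 3 groups without overlap (log2 changes -0.42, -0.54 and -0.30). Its call in the libraries labelled TAZ4SA was lost without replicate 3 of that group (adjusted p = 0.0572). HOXB5 stood at 8.73, 9.37 and 7.22 CPM in EV, 5.85, 6.94 and 5.5 CPM in YAP5SA and 6.71, 6.57 and 6.02 CPM in the libraries labelled TAZ4SA. It was called lower (-0.40 in the libraries labelled TAZ4SA, -0.47 in YAP5SA), and these calls were lost without any 1 of 4 libraries (EV replicates 1 and 2, TAZ4SA replicates 2 and 3, adjusted p of 0.0556 to 0.125) and any 1 of 2 (EV replicate 2, YAP5SA replicate 3, adjusted p of 0.0576 and 0.0635). HOXB8 had 6.21, 6.13 and 5.72 CPM in EV, 2.83, 4.57 and 4.50 CPM in YAP5SA and 3.83, 4.80 and 4.31 CPM in YAP-TFE3. Both groups lay below EV, with log2 changes of -0.60 in the first and -0.48 in the second (the latter lost without YAP-TFE3 replicate 1, adjusted p = 0.0721). HOXB2, a hindbrain gene, was lower in YAP-TFE3, at 16.1, 16.1 and 10.5 CPM against 23.7, 22.1 and 19.0 CPM in EV (-0.61, adjusted p = 0.00166). HOXB3 was lower there too, at 22.7, 23.6 and 23.4 CPM against 30.3, 29.3 and 27 CPM (-0.32, adjusted p = 0.00229), and neither gene overlapped EV. HOXB4, which promotes self-renewal of blood stem cells, went both ways. It had 14.9, 17.2 and 17.6 CPM in EV, 21.8, 21.0 and 18.9 CPM in the libraries labelled TAZ4SA and 13.2, 12.6 and 12.5 CPM in YAP-TFE3, with log2 changes of 0.31 in the libraries labelled TAZ4SA and -0.37 in YAP-TFE3. The rise was lost without EV replicate 1 (adjusted p = 0.0826) or TAZ4SA replicate 1 (adjusted p = 0.0554) and with total-count scaling.

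In cluster C, 6 of the 9 genes (66.7%) rose and 0 fell both in YAP5SA and in the libraries labelled TAZ4SA, where 22.6% and 24.9% of all genes were called higher. HOXC12, a posterior gene, had the largest change of any HOX gene: 2.62, 2.40 and 2.23 CPM in EV, 9.68, 8.18 and 6.87 CPM in YAP5SA and 5.26, 5.20 and 4.32 CPM in the libraries labelled TAZ4SA. Neither group overlapped EV, and the log2 changes in edgeR were 1.76 (SE 0.22, adjusted p = 3.21e-07, 3.39-fold) and 1.02 (SE 0.22, adjusted p = 0.000475). HOXC13, a regulator of hair and nail keratins, had 23.4, 25.0 and 25.5 CPM in EV, 51.6, 52.1 and 39.2 CPM in YAP5SA and 44.4, 42.9 and 32.8 CPM in the libraries labelled TAZ4SA. Its levels were separate from EV in both, with log2 changes of 0.95 (SE 0.14, adjusted p = 6.26e-06) and 0.70 (SE 0.14, adjusted p = 0.000248). HOXC8 rose from 18.4, 16.7 and 15.3 CPM to 34.5, 32.1 and 28.4 CPM in YAP5SA (log2 change 0.91, adjusted p = 6.56e-07) and to 28.5, 29.3 and 24 CPM in the libraries labelled TAZ4SA (0.70, adjusted p = 2.61e-05). HOXC4, whose window with the TEAD match is shown above, rose from 5.11, 4.91 and 5.57 CPM to 11.4, 8.54 and 9.02 CPM in the libraries labelled TAZ4SA (log2 change 0.90, adjusted p = 1.38e-06) and 8.40, 8.84 and 9.44 CPM in YAP5SA (0.78, adjusted p = 1.3e-05). These 4 genes were called in both comparisons and held without any 1 library. HOXC11 rose in YAP5SA from 3.97, 4.34 and 4.55 CPM to 7.36, 7.61 and 5.38 CPM (0.66, adjusted p = 0.00473), and HOXC6 from 17.5, 16.5 and 18.4 CPM to 23.0, 21.6 and 20.8 CPM (0.32). The last calls of the libraries labelled TAZ4SA were HOXC9, at 10.4, 11.7 and 9.72 CPM against 7.62, 8.15 and 8.29 CPM (0.41), and HOXC5, at 0.763, 0.730 and 0.733 CPM against 0.345, 0.571 and 0.242 CPM (0.91). In all of these the groups were separate. HOXC6 in YAP5SA was lost with total-count scaling (adjusted p = 0.228). HOXC9 was lost with that scaling (adjusted p = 0.188) and without EV replicate 1 or TAZ4SA replicate 2 (adjusted p = 0.0567 and 0.0760). HOXC5, at under 1 CPM in every library, was lost in DESeq2 (adjusted p = 0.0722) and without any 1 of the libraries other than EV replicate 2 (adjusted p of 0.0583 to 0.125).

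YAP-TFE3 split cluster C, with 2 higher (22.2%, beside 25.6% of all genes) and 5 lower (55.6%, beside 22.5%). HOXC6 (22.9, 23.9 and 28.1 CPM against 17.5, 16.5 and 18.4 CPM in EV, log2 change 0.52, adjusted p = 4.57e-05 in edgeR) and HOXC8 (24.8, 26.0 and 19.1 CPM, log2 change 0.47, adjusted p = 0.00178) were the higher genes. HOXC9 was lower, at 5.56, 6.37 and 5 CPM against 7.62, 8.15 and 8.29 CPM (log2 change -0.51, adjusted p = 0.00334). HOXC10 had 4.58, 5.59 and 5.95 CPM against 7, 6.70 and 7.80 CPM, HOXC11 had 2.79, 3.14 and 2.78 CPM against 3.97, 4.34 and 4.55 CPM, and HOXC13 had 19.3, 20.8 and 17.4 CPM against 23.4, 25.0 and 25.5 CPM. HOXC11 (-0.56), HOXC10 (-0.41), HOXC13 (-0.36) and HOXC5 (-1.42, from 0.345, 0.571 and 0.242 CPM to 0.130, 0.188 and 0.116 CPM) were lower in the full set but not in every reduced one. They were lost without EV replicate 3 (HOXC11, adjusted p = 0.0514), EV replicate 3 or YAP-TFE3 replicate 1 (HOXC10, 0.0733 to 0.106), EV replicates 2 or 3 or YAP-TFE3 replicates 1 or 3 (HOXC13, 0.0748 to 0.132) and EV replicate 2 (HOXC5, 0.0996). HOXC12, by contrast with YAP5SA, had 2.53, 2.82 and 2.34 CPM in YAP-TFE3 and overlapped EV. In TAZ-CAMTA1 the call in cluster C was HOXC6 (22.0, 23.3 and 23.6 CPM, log2 change 0.40, SE 0.09, adjusted p = 0.00922), which was lost without EV replicate 2 (adjusted p = 0.0721) or TAZ-CAMTA1 replicate 3 (adjusted p = 0.0516).

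**Figure D3:**
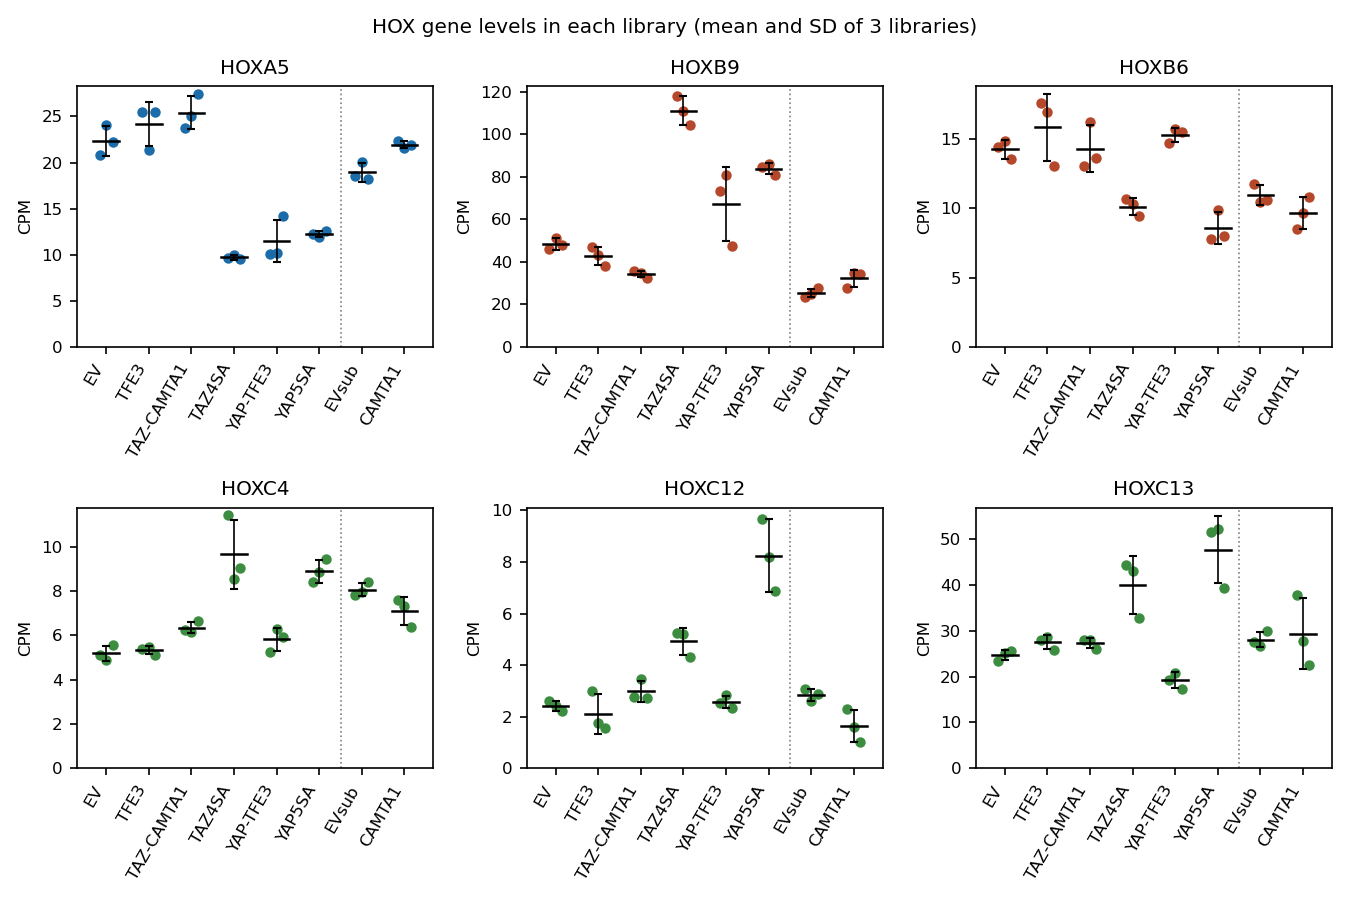
Level in CPM of HOXA5, HOXB9, HOXB6, HOXC4, HOXC12 and HOXC13 in each library of the 8 groups, with the mean and SD of each group and a dotted line before the sub-confluent groups. HOXC12 in YAP5SA (6.87 to 9.68 CPM) lies above every EV library, and HOXB9 in YAP-TFE3 is split by replicate 3 at 47.6 CPM.

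Cluster D had the fewest calls against EV. HOXD8, a central trunk gene, was called higher in YAP-TFE3 (23.3, 24.1 and 12.5 CPM against 13.4, 16.4 and 10.7 CPM in EV, log2 change 0.56, adjusted p = 0.0155 in edgeR), but replicate 3 lay within the EV range and the call was lost without EV replicate 3, YAP-TFE3 replicate 1 or YAP-TFE3 replicate 2 (adjusted p of 0.0843 to 0.105). HOXD3, whose window with the E-box match is shown above, was lower in the libraries labelled TAZ4SA (1.04, 1.55 and 0.694 CPM against 1.66, 1.87 and 1.70 CPM, log2 change -0.68, adjusted p = 0.0315), and this was lost without any 1 of the libraries other than TAZ4SA replicate 2 (adjusted p of 0.0504 to 0.190). HOXD1, HOXD4 and HOXD13 were called in none of the 10 comparisons made. HOXD13, which patterns the digits, had 11.1, 12.7 and 10.4 CPM in EV and 8.12 to 12.7 CPM over the confluent constructs. Replicate 3 of YAP-TFE3 stood apart from the other two in HOXB9, HOXD8, HOXB2, HOXA2 and HOXA11 (6.30 against 10.2 and 9.73 CPM), where it was lower, and in HOXB13 (52.2 against 31.7 and 36.9 CPM) and HOXA5, where it was higher. Its mitochondrial share of counts was 5.12%, against 3.63% and 3.79% in the other two, and the part of this in the HOX values was not tested. Without this library YAP-TFE3 vs EV had 23 called HOX genes (7 higher, 16 lower), of which 20 were among the 22.

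Paralogs were called together in some groups and in opposite directions in others. In YAP-TFE3, both tested members of group 2 (HOXA2 and HOXB2), group 7 (HOXA7 and HOXB7) and group 10 (HOXA10 and HOXC10) were called lower than in EV, but the calls of HOXA2, HOXA7, HOXA10 and HOXC10 were each lost without some 1 library (adjusted p up to 0.126, 0.212, 0.0633 and 0.106 in edgeR). In group 5, HOXA5 and HOXB5 fell in the libraries labelled TAZ4SA while HOXC5 was called higher there. The HOXB5 and HOXC5 calls were each lost without some 1 library (adjusted p up to 0.125 for each in edgeR). HOXC5 was also lost in DESeq2 (adjusted p = 0.0722). In group 6, HOXC6 rose and HOXB6 fell in YAP5SA, and HOXA6 was not called. In group 9, HOXB9 and HOXC9 were higher in the libraries labelled TAZ4SA with HOXA9 and HOXD9 not called, and in YAP-TFE3 HOXB9 was higher and HOXC9 lower. In group 13, HOXC13 rose and HOXB13 fell in YAP5SA and in the libraries labelled TAZ4SA, HOXA13 fell in the latter, and HOXD13 was not called. The calls of HOXC9 and HOXA13 in the libraries labelled TAZ4SA and of HOXB9 in YAP-TFE3 were also lost without some 1 library. Over the comparisons of constructs with their empty vector, 6 genes (HOXB4, HOXB9, HOXC5, HOXC9, HOXC11 and HOXC13) were called in both directions and 6 (HOXA9, HOXA11, HOXD1, HOXD4, HOXD9 and HOXD13) in neither. Each of the first 6 lost its calls in at least 1 direction when some 1 library was left out. Lost were the rises of HOXB4, HOXC5 and HOXC9 in the libraries labelled TAZ4SA and the fall of HOXB9 in TAZ-CAMTA1. The falls of HOXC5, HOXC11 and HOXC13 in YAP-TFE3 were lost too. The share of all genes called in both directions was not counted.

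The sub-confluent empty vector cells differed from the confluent ones in 8 HOX genes, 1 higher and 7 lower in EVsub than in EV, with 36.8% of all genes called in that comparison (19.7% higher, 17.1% lower). Cluster B made up 5 of the 7. HOXB9 had 23.6, 24.8 and 27.6 CPM in EVsub and 46.0 to 51.3 CPM in EV, with no overlap (log2 change -0.93, SE 0.13, adjusted p = 1.47e-05 in edgeR). HOXB8 (3.09, 4.23 and 3.21 CPM against 5.72 to 6.21 CPM, log2 change -0.79), HOXB5 (5.07, 5.45 and 5.87 CPM, -0.63) and HOXB13 (27.7, 33.0 and 32.6 CPM, -0.62) were lower as well, all of them outside the EV range. HOXC4 was the higher gene, at 7.81, 7.97 and 8.40 CPM against 4.91 to 5.57 CPM (log2 change 0.64, SE 0.12, adjusted p = 0.000305). HOXB6 (11.8, 10.5 and 10.6 CPM, -0.38), HOXA13 (8.69, 8.69 and 7.32 CPM, -0.43) and HOXD9 (5.41, 6.67 and 7.46 CPM against 8.66, 8.07 and 9.25 CPM, -0.40) were called lower, but HOXB6 was lost without EV replicate 2 or EVsub replicate 2 or 3, with adjusted p of 0.0590 to 0.0635. HOXA13 was lost without EV replicate 1 or 2 or EVsub replicate 3, with adjusted p of 0.0674 to 0.128, and HOXD9 without any of EV replicate 1, EV replicate 3, EVsub replicate 1 or EVsub replicate 2, with adjusted p of 0.0522 to 0.170. Any other difference between the harvests of EV and EVsub cannot be told apart from density.

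Against EVsub, full-length CAMTA1 changed 0 HOX genes in edgeR and 0 in DESeq2, where 1.87% of all genes were called (1.27% higher, 0.6% lower), and 5 had an unadjusted p below 0.05. HOXC12 had 2.29, 1.62 and 1.03 CPM against 3.09, 2.61 and 2.87 CPM (log2 change -0.75, adjusted p = 0.112). HOXB9 (0.34), HOXA3 (0.33) and HOXB7 (-0.22) had unadjusted p below 0.05 too, with adjusted p of 0.245, 0.350 and 0.298. A p above the threshold does not show that these levels were equal.

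Set beside the coactivator it is built from, each fusion had its largest share of called genes in cluster C. TAZ-CAMTA1 differed from the libraries labelled TAZ4SA in 18 HOX genes (9 higher, 9 lower, with 53.5% of all genes called, 26.8% higher and 26.7% lower), and 7 of the 9 lower genes were in cluster C. YAP-TFE3 differed from YAP5SA in 21 (4 higher, 17 lower, with 52.3%, of which 28% of all genes were higher and 24.3% lower), and 8 of the 9 HOXC genes were lower, HOXC6 not being called. With total-count scaling the splits were 13 higher and 7 lower, and 6 higher and 13 lower. HOXC12 was lower in YAP-TFE3 than in YAP5SA (log2 change -1.68, SE 0.21, adjusted p = 2.99e-07 in edgeR, 3.2-fold), as were HOXC13 (-1.31, SE 0.14, adjusted p = 3.32e-08) and HOXC11 (-1.22, SE 0.18, adjusted p = 5e-06). In TAZ-CAMTA1 against the libraries labelled TAZ4SA, HOXB9 differed most (34.3 ± 1.53 against 111 ± 6.80 CPM, log2 change -1.70, SE 0.13, adjusted p = 1.31e-10), followed by HOXA5 in the other direction (25.4 ± 1.82 against 9.70 ± 0.273 CPM, 1.39, SE 0.12, adjusted p = 3.64e-10). HOXC5 (-1.37), HOXC12 (-0.72), HOXC8 (-0.64) and HOXC4 (-0.61) were lower and HOXD3 (1.02), HOXA13 (0.61) and HOXB13 (0.54) higher.

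For these 2 comparisons the calls mostly held when libraries were left out, in 16 of 18 and 14 of 21 genes. HOXC10 (4 libraries) and HOXB3 (5 libraries) were lost in the former, with adjusted p of 0.0528 to 0.236 and 0.0586 to 0.112. Between YAP-TFE3 and YAP5SA, HOXA4 (-1.19), HOXA3 (-0.67) and HOXA6 (-0.69) were lower and HOXB6 (0.84, adjusted p = 4.96e-06), HOXB5 (0.64) and HOXD3 (0.82) higher in every reduced set. The calls of HOXA2, HOXA10, HOXA13, HOXB4, HOXB9, HOXC5 and HOXD9 were lost without 1 to 6 of the libraries. Against EV, calls held without any 1 library in 11 of 22 genes for YAP-TFE3 and 9 of 16 for the libraries labelled TAZ4SA. The count was 13 of 14 for YAP5SA, 1 of 3 for TAZ-CAMTA1 and 5 of 8 for EVsub, and 10 of 17 between the fusions.

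**Figure D4:**
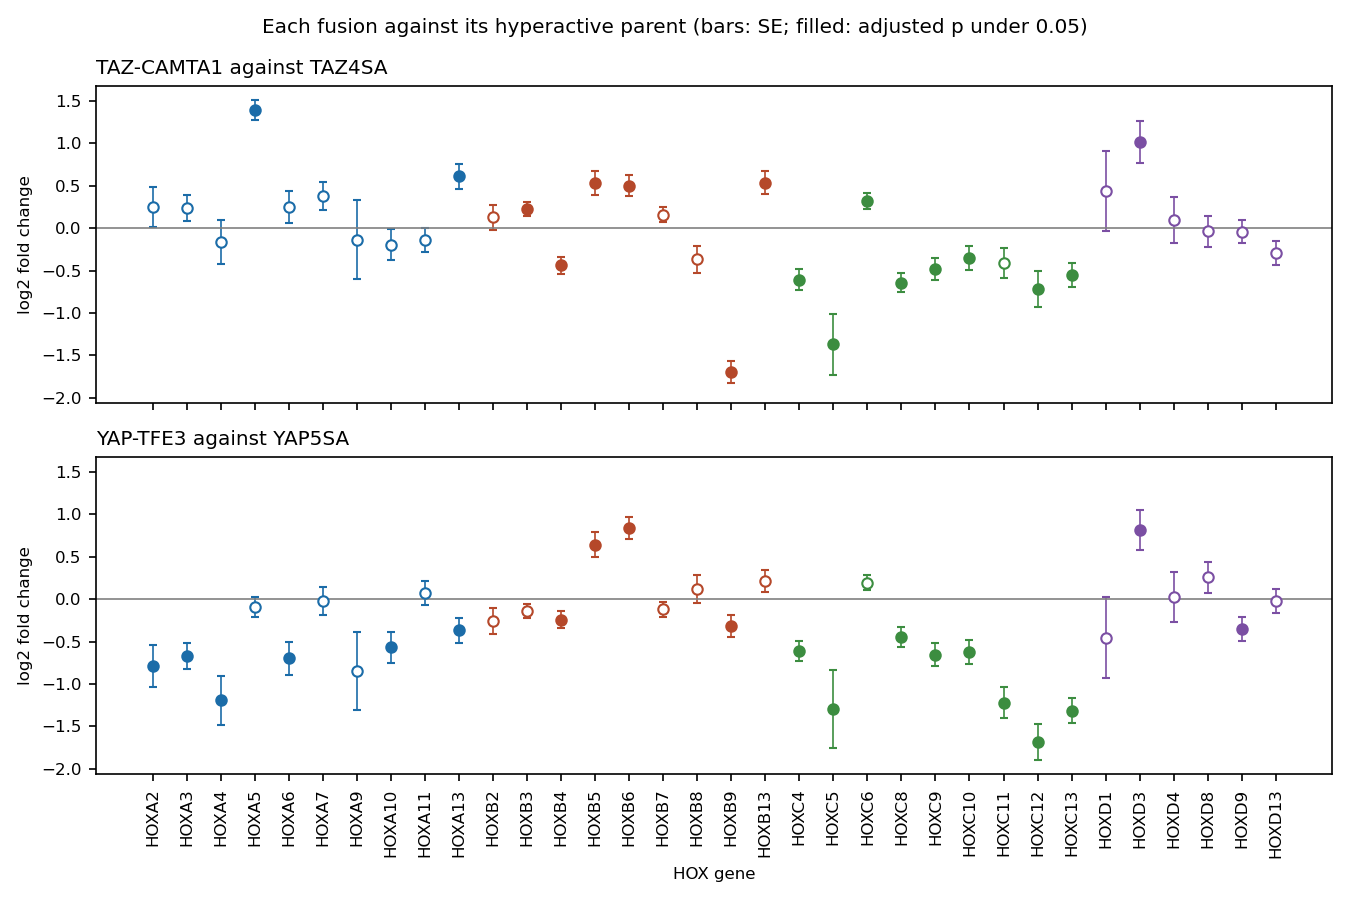
Log2 fold change with its standard error of each tested HOX gene in TAZ-CAMTA1 against the libraries labelled TAZ4SA and in YAP-TFE3 against YAP5SA, with filled points where the adjusted p was below 0.05. The HOXC genes lie mostly below 0 in both panels, and HOXB9 at -1.70 is the lowest point of the first.

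The 2 fusions differed from each other in 17 HOX genes, 14 higher in TAZ-CAMTA1 and 3 lower, with 42.4% of all genes called (19.7% higher, 22.8% lower). Cluster A made up 7 of the 14. HOXA4 (log2 change 1.14, SE 0.28, adjusted p = 0.00181 in edgeR), HOXA5 (1.14, SE 0.11, adjusted p = 1.06e-08), HOXA2 (0.83), HOXA3 (0.77), HOXA6 (0.77), HOXA7 (0.47) and HOXA13 (0.46) were higher in TAZ-CAMTA1. HOXB9 (-0.97, adjusted p = 1.47e-06), HOXC8 (-0.41) and HOXA11 (-0.39) were lower. The calls of HOXA2, HOXA7, HOXA11, HOXB2, HOXC9, HOXC11 and HOXD9 were lost without 1 to 4 of the 6 libraries, and 11 genes were left when TAZ-CAMTA1 replicate 3 was dropped. With only these 2 groups fitted in edgeR, 12 genes were called (11 higher, 1 lower), and HOXC8 was also lost (adjusted p = 0.0549).

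Of 18 noncoding RNAs listed from within the clusters, 13 were tested. The libraries labelled TAZ4SA had 3 higher and 6 lower, YAP5SA 3 and 4, YAP-TFE3 2 and 4, TAZ-CAMTA1 1 and 0, EVsub against EV 0 and 6, and TFE3 and CAMTA1 0 and 0 in edgeR, with 3 and 1 at an unadjusted p below 0.05. The share called was 69.2% in the libraries labelled TAZ4SA (49% of all genes), 53.8% in YAP5SA (44.1%), 46.2% in YAP-TFE3 (48.1%) and 46.2% in EVsub (36.8%), so that YAP-TFE3 lay at its background. HOXC13-AS, antisense to HOXC13, rose from 2.47 ± 0.0619 CPM in EV to 9.46 ± 1.13 CPM in YAP5SA (log2 change 1.94, SE 0.23, adjusted p = 1.38e-07) and 7.80 ± 0.208 CPM in the libraries labelled TAZ4SA (1.66, SE 0.23, adjusted p = 1.54e-06). HOXA-AS2 (-0.82, -0.64 and -0.87) and HOXA-AS3 (-1.0, -0.67 and -1.15), antisense RNAs of the stretch that holds HOXA3 to HOXA6, were lower in the libraries labelled TAZ4SA, in YAP5SA and in YAP-TFE3. HOTAIR, transcribed from cluster C and known to bind Polycomb proteins, was lower in the libraries labelled TAZ4SA (-0.76, adjusted p = 0.00264).

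The TALE cofactors, which bind DNA with HOX proteins, had more lower than higher calls in YAP-TFE3, YAP5SA, EVsub and the libraries labelled TAZ4SA. Of 9 tested, 5 were lower in the libraries labelled TAZ4SA, 4 in YAP5SA and 7 in YAP-TFE3, with 0 higher, while TAZ-CAMTA1 had 1 higher and TFE3 and CAMTA1 0 in edgeR, with 0 and 1 at an unadjusted p below 0.05. EVsub had 1 higher and 4 lower. The share called was 77.8% in YAP-TFE3 (48.1% of all genes), 55.6% in the libraries labelled TAZ4SA (49%), 44.4% in YAP5SA (44.1%) and 55.6% in EVsub (36.8%), so that YAP5SA lay at its background only with both directions counted together. Of all genes, 22.5% were called lower in YAP-TFE3, 24% in the libraries labelled TAZ4SA, 21.5% in YAP5SA and 17.1% in EVsub. The median log2 change was -0.35 in the libraries labelled TAZ4SA, -0.30 in YAP5SA and -0.63 in YAP-TFE3, beside -0.03, -0.04 and -0.01 over all genes. PKNOX2 fell from 15.7 ± 1.54 to 4.63 ± 1.06 CPM in the libraries labelled TAZ4SA (log2 change -1.76, SE 0.15, adjusted p = 8.32e-10), MEIS1 from 14.8 ± 3.59 to 5.54 ± 0.365 CPM in YAP5SA (-1.42, SE 0.17, adjusted p = 1.44e-07) and MEIS2 from 20.9 ± 1.98 to 9.69 ± 0.792 CPM in YAP-TFE3 (-1.11, SE 0.10, adjusted p = 8.6e-10). PKNOX2 was the gene that rose in TAZ-CAMTA1 (0.56, adjusted p = 0.0158). Of the axial regulators, 8 listed and 5 tested, GDF11, a signal that sets the posterior boundary, fell by 1.54 on the log2 scale in the libraries labelled TAZ4SA.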

How the data were processed

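The authors sequenced poly(A) RNA and deposited, for each library, a table of unnormalized counts by Ensembl gene. They aligned the reads to hg38 with Hisat2 inside bcbio-nextgen. The library kit was stranded (TruSeq mRNA). The authors also quantified transcripts with Salmon and summed them to genes with tximport. Which of these routes made the deposited counts, and whether counting used strand, is not given in the sources used here. Replicates were not pooled.

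Groups came from the sample titles. GENCODE release 44 gave symbols, positions and exon lengths. The 19997 genes averaging 5 counts or more were fitted in edgeR 4.0.16 (R 4.3.3) over all 24 libraries with 1 mean per group, TMM scaling and the robust quasi-likelihood test. Adjusted p-values are Benjamini-Hochberg over these genes, and SE is the absolute log2 change divided by the root of F. DESeq2 1.42.0, other scalings, filters, sample sets and a replicate block were alternatives. CPM use TMM-scaled library sizes, and more deeply sequenced libraries measure low genes better. Tested members that were called against an empty vector or between a fusion and its coactivator are described with their library values. From each other list up to 4 genes are named, by largest absolute log2 change among called genes averaging 50 counts or more, besides noncoding RNAs next to a named HOX gene. The members and lists were chosen with earlier results of these data known. Same-numbered replicates did not deviate together in every pair of any comparison (mean correlation -0.03 to 0.13), so the numbers were not taken as pairs. Promoters were searched in Python 3.11.15. A HOX gene and a regulator are not reported here by name, and the counts of genes include them.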

Additional observations from a re-analysis of the deposited data

How the results depend on the processing

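Of 119 called HOX results over the 10 comparisons, 72 held in every setting except a test that asks for a log2 change beyond 1 either way, and 0 reversed. DESeq2 kept 118 of 119, DESeq2's size factors in edgeR 119, the replicate block 119, total-count scaling 107, a filter of at least 1 count 97, fits of only the groups compared 103, and a mean of at least 50 counts 109 of the 109 it tested. Under that test the count was 0 for TAZ-CAMTA1 vs EV, 0 for TAZ4SA vs EV, 1 for YAP-TFE3 vs EV, 1 for YAP5SA vs EV, 0 for EVsub vs EV, 2 for TAZ-CAMTA1 vs TAZ4SA, 1 for YAP-TFE3 vs YAP5SA and 0 for TAZ-CAMTA1 vs YAP-TFE3. That setting asks for a larger change by construction. With genes of at least 1 count kept, the count was 5 for EVsub vs EV and 1 (lower) for CAMTA1 vs EVsub, and the replicate block also gave 1 (lower) for CAMTA1 vs EVsub. The cause was not tested. With the replicate block the other counts were 0 (TFE3), 14 (YAP5SA), 23 (YAP-TFE3), 17 (TAZ4SA), 3 (TAZ-CAMTA1) and 10 (EVsub) vs EV, 20 and 21 for the fusions vs their coactivators, and 17 between the fusions. Leaving out 1 library gave 1 to 3 for TAZ-CAMTA1 vs EV (1 without EV replicate 2 or TAZ-CAMTA1 replicate 3), 11 to 15 for TAZ4SA vs EV, 16 to 23 for YAP-TFE3 vs EV, 13 to 16 for YAP5SA vs EV, 0 to 0 for TFE3 vs EV, 0 to 1 for CAMTA1 vs EVsub (1 without CAMTA1 replicate 1 or 3), 6 to 8 for EVsub vs EV, 16 to 19 for TAZ-CAMTA1 vs TAZ4SA, 16 to 19 for YAP-TFE3 vs YAP5SA and 11 to 17 for TAZ-CAMTA1 vs YAP-TFE3 (11 without TAZ-CAMTA1 replicate 3). Genes at under 1 CPM, such as HOXA9, HOXC5 and HOXD1, are limited by depth, and p-values cover only the spread between these libraries.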

Other observations

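Of 27 Polycomb genes, which keep clusters silent, 13 were called in the libraries labelled TAZ4SA vs EV (6 higher, 7 lower, 48.1% beside 49% of all genes), 16 in YAP-TFE3 (6 higher, 10 lower, 59.3% beside 48.1%), 10 in YAP5SA (2 higher, 8 lower, 37% beside 44.1%), 16 in EVsub (11 higher, 5 lower, 59.3% beside 36.8%) and 0 in TAZ-CAMTA1 in edgeR, where 6 had an unadjusted p below 0.05. PHF19, a Polycomb accessory protein, stood at 43.7 ± 2.54 CPM in YAP-TFE3 and 147 ± 14.3 CPM in YAP5SA (log2 change -1.75, SE 0.11, adjusted p = 3.43e-12). SUZ12, a core subunit, was higher in TAZ-CAMTA1 than in the libraries labelled TAZ4SA (49.0 ± 4.56 and 22.4 ± 3.55 CPM, log2 change 1.13, SE 0.17, adjusted p = 4.98e-06), and CBX7, a chromodomain subunit, was lower (14.6 ± 1.00 and 33.0 ± 1.77 CPM, -1.18, SE 0.11, adjusted p = 4.06e-09). Of 15 Trithorax and histone demethylase genes, 9 were lower and 0 higher in YAP-TFE3 vs EV (60% beside 48.1% of all genes), 4 higher and 4 lower in the libraries labelled TAZ4SA (53.3% beside 49%), and 2 higher and 3 lower in both YAP5SA and EVsub (33.3% beside 44.1% and 36.8%). KDM6B, a demethylase that removes the Polycomb mark, was at 18.3 ± 0.662 CPM in EVsub and 35.8 ± 2.12 CPM in EV (log2 change -0.96, SE 0.12, adjusted p = 3.19e-06).

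Retinoic acid induces anterior HOX genes in embryos. Of 18 genes listed for its synthesis, breakdown and receptors, 15 were tested, and 8 were called in the libraries labelled TAZ4SA vs EV (3 higher, 5 lower, 53.3% beside 49% of all genes), 8 in YAP-TFE3 (3 higher, 5 lower, 53.3% beside 48.1%), 6 in YAP5SA (1 higher, 5 lower, 40% beside 44.1%), 8 in EVsub (3 higher, 5 lower, 53.3% beside 36.8%) and 0 in TAZ-CAMTA1, where 0 had an unadjusted p below 0.05. STRA6, a retinol transporter, was lower in YAP5SA (5.76 ± 1.57 CPM) than in EV (16.1 ± 1.77 CPM, log2 change -1.49, SE 0.26, adjusted p = 6.7e-05). RARB, a retinoic acid receptor, was at 48.7 ± 4.23 CPM in TAZ-CAMTA1 and 21.6 ± 2.27 CPM in the libraries labelled TAZ4SA (1.17, SE 0.11, adjusted p = 3.36e-09). Of 16 genes that flank the clusters, 14 were tested. Against EV, 4 were higher and 5 lower in the libraries labelled TAZ4SA (64.3% beside 49% of all genes). YAP-TFE3 had 5 and 4 (64.3% beside 48.1%), YAP5SA 5 and 3 (57.1% beside 44.1%) and EVsub 5 and 4 (64.3% beside 36.8%). TAZ-CAMTA1 had 1 and 1 (14.3% beside 5.02%). SNX10, beside cluster A, was higher in YAP-TFE3 than in EV (14.8 ± 5.08 and 4 ± 0.395 CPM, 1.88, SE 0.24, adjusted p = 6.99e-07), and CBX5, beside cluster C, was higher in TAZ-CAMTA1 than in YAP-TFE3 (285 ± 12.6 and 152 ± 17.8 CPM, 0.91, SE 0.08, adjusted p = 3.46e-09). All p-values here are from edgeR.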
